A study of Mus musculus with 2 samples.

Results

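The genes described here are 8 subunits of voltage-gated calcium channels, taken by symbol from the 27999 features of the table. They are the L-type pores Cacna1c and Cacna1d, the T-type pores Cacna1g and Cacna1h, the beta subunit Cacnb2, and the alpha2delta subunits Cacna2d1, Cacna2d2 and Cacna2d3. Each symbol occurred once in the table. The libraries came from the right ventricle of C57/BL6J mouse pups that were CBP flox/flox and p300 flox/flox, with Trap flox/flox besides. AAV9, an adeno-associated virus, was given on postnatal day 1 to knock out p300/CBP. Tissue was taken on postnatal day 21. Both libraries carry the same genotype, treatment and ages and form 1 group, so every cell compared below carries the same floxed alleles and no control sample was compared. The labels give neither the promoter of the viral gene, nor the number of pups in a library, nor what the GFP feature of the table reports.

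A voltage-gated calcium channel is built around 1 pore protein that opens when the membrane depolarises. L-type channels open at stronger depolarisation, and in ventricular muscle their calcium entry triggers the larger release from the sarcoplasmic reticulum. T-type channels open near the resting potential and are best known from pacemaker cells and the embryonic heart. Beta subunits carry the pore to the membrane and set its gating, and alpha2delta subunits raise the number of channels at the surface.

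Library 1 held 12736 barcodes with 57982200 UMIs (unique molecular identifiers, 1 per captured transcript) and library 2 held 9447 barcodes with 50199793 UMIs, and 17 barcode sequences occurred in both. Clusters were named from marker genes, with the 8 members kept out of the clustering. The names carry "-like" because they rest on transcripts alone. Cardiomyocyte-like cells numbered 7500 in library 1 and 2232 in library 2. Most of those of library 2 (2129 cells) formed cluster 1, which held 34 cells of library 1, so the libraries stood apart within this class. Fibroblast-like cells numbered 139 and 2377. Cluster 8, with 976 and 96 cells, was best matched by the fibroblast markers but left unnamed for markers of another list among its leading genes, so most such cells of library 1 are outside the class; with clusters of this kind kept it numbered 1115 and 2473. Macrophage-like cells numbered 283 and 508, although the protocol names an enrichment for CD45, a white cell protein. No name was given to 22.5% of the cells left in library 1 after filtering and to 5.09% of those in library 2. The protocol names cells, while mitochondrial transcripts made up a median of only 0.338% and 0.229% of counts and Malat1, a nuclear RNA, 5.58% and 3.73%. The targeted genes were counted in cardiomyocyte-like cells at 111 and 116 CPM (UMI counts divided by the total of the class sum and put on a common scale) for Ep300 (p300) and 382 and 465 CPM for Crebbp (CBP). Reads from the 3′ end may lie outside the deleted exons, so these levels check nothing. The female-specific Xist was counted at 1246 and 529 CPM over all barcodes, and the Y-linked Uty at 0.293 and 214 CPM. Uty, Kdm5d, Eif2s3y and Ddx3y, all Y-linked, were among the leading genes of cluster 1. The labels give no sex, and differences between the libraries cannot be told apart from a difference in sex.

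Cacna1c and Cacnb2 were each among the 3 genes most like the other in pattern over cell classes (Pearson's r = 0.990), so their promoter windows are shown. Each runs from 250 bases before to 50 bases after an annotated start, 5′ to 3′ on the gene's strand, from RefSeq on GRCm38.p6. Capitals mark the letters of a T-box half-site, AGGTGT, found on either strand.

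Cacna1c start 1, chr6:119196360-119196659, minus strand: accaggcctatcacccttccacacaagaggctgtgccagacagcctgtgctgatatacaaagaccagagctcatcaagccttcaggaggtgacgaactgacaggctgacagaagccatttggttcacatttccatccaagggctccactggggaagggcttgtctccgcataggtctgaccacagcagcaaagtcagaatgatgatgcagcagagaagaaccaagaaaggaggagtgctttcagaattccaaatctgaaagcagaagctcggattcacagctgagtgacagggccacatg
Cacna1c start 2, chr6:119108446-119108745, minus strand: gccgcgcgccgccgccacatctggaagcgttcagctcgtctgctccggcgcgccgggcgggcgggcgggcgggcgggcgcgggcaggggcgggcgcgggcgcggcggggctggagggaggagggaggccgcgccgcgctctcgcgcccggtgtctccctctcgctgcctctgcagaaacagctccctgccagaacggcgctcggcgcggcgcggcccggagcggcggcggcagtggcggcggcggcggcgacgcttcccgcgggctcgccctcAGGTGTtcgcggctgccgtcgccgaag
Cacna1c start 3, chr6:118757925-118758224, minus strand: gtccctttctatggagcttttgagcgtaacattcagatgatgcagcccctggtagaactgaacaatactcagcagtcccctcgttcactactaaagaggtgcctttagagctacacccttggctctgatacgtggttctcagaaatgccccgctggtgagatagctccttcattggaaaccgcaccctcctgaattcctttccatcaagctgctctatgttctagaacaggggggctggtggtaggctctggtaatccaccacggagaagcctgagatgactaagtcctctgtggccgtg

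Cacnb2 start 1, chr2:14604056-14604355, plus strand: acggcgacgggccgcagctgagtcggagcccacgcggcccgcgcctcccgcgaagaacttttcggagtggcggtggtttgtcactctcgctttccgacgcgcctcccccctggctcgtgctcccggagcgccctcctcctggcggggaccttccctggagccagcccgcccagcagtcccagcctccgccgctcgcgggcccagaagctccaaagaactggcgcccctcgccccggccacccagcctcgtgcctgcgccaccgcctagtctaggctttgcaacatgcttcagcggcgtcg
Cacnb2 start 2, chr2:14823842-14824141, plus strand: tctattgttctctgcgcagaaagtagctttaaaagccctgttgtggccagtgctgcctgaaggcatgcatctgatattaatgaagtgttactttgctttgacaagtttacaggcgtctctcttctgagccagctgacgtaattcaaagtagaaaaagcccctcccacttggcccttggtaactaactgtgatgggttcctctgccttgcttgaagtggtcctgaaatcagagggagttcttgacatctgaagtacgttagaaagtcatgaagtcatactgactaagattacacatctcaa

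Starts were found for 6 of the 8 members, 10 in all, and none for Cacna1g and Cacna1h. Each window was searched on both strands for AGGTGT, for the GATA letters AGATAA and for a MEF2-type motif, CTA and TAG separated by 4 bases of any kind. No match overlapped another. The only match in the 10 windows was the AGGTGT in the second Cacna1c start, against 13.7% of 32851 mouse promoter windows of 300 bases that hold these letters. AGATAA occurred in 11.2% and the MEF2-type motif in 3.69% of those windows. A match here describes letters only. That Cacna1c window had a GC content of 81.3%, and the other 2 of 51.3%.

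Counts were summed per library and class for the 7 classes that had 50 cells or more in each library, and every class was set against the mean of the remaining 6. The edgeR quasi-likelihood fit covered 12217 genes, with library as a block, and p-values were adjusted over all of them by the Benjamini-Hochberg method. These p-values measure how class differences vary between the 2 libraries, part of which may be technical. Cardiomyocyte-like cells, the contractile cells, had higher levels of 6 of the 7 members tested: Cacna1c, Cacnb2, Cacna1h, Cacna1g, Cacna2d3 and Cacna2d1. In that comparison 31.8% of all genes tested were higher and 34.7% lower. The median log2 difference of the 7 members was 3.08, beside -0.07 for all genes tested. Without TMM scaling the median of all genes was -0.55, and the calls over all genes split into 2361 higher and 6463 lower in place of 3883 and 4240. The same 6 members were higher under that scaling too, with log2 differences from 2.01 to 3.68. Computed from library 1 alone, Cacna1c was 3.25 higher, Cacnb2 2.87, Cacna1g 2.47 and Cacna2d1 2.20; from library 2 alone they were 4.94, 4.08, 3.76 and 2.81 higher. Cardiomyocyte markers in the other tested classes stood at 12.3% to 26.7% of their cardiomyocyte-like level in library 1 and 2.98% to 11.01% in library 2, and their part in this gap was not tested. Keeping cells marked as doublets brought Cacna1c to 2.63, Cacnb2 to 2.39 and Cacna1h to 1.66. Cacna2d2 had too few counts to be tested. In the pairs of classes named below, the share of all genes called in either direction was 48.5% for cardiomyocyte-like against pericyte-like, 60.2% against macrophage-like and 56.1% against fibroblast-like cells. It was 18.9% for fibroblast-like against pericyte-like, 32.7% against macrophage-like, and 23.7% for lymphatic endothelial-like against pericyte-like cells.

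**Figure D1:**
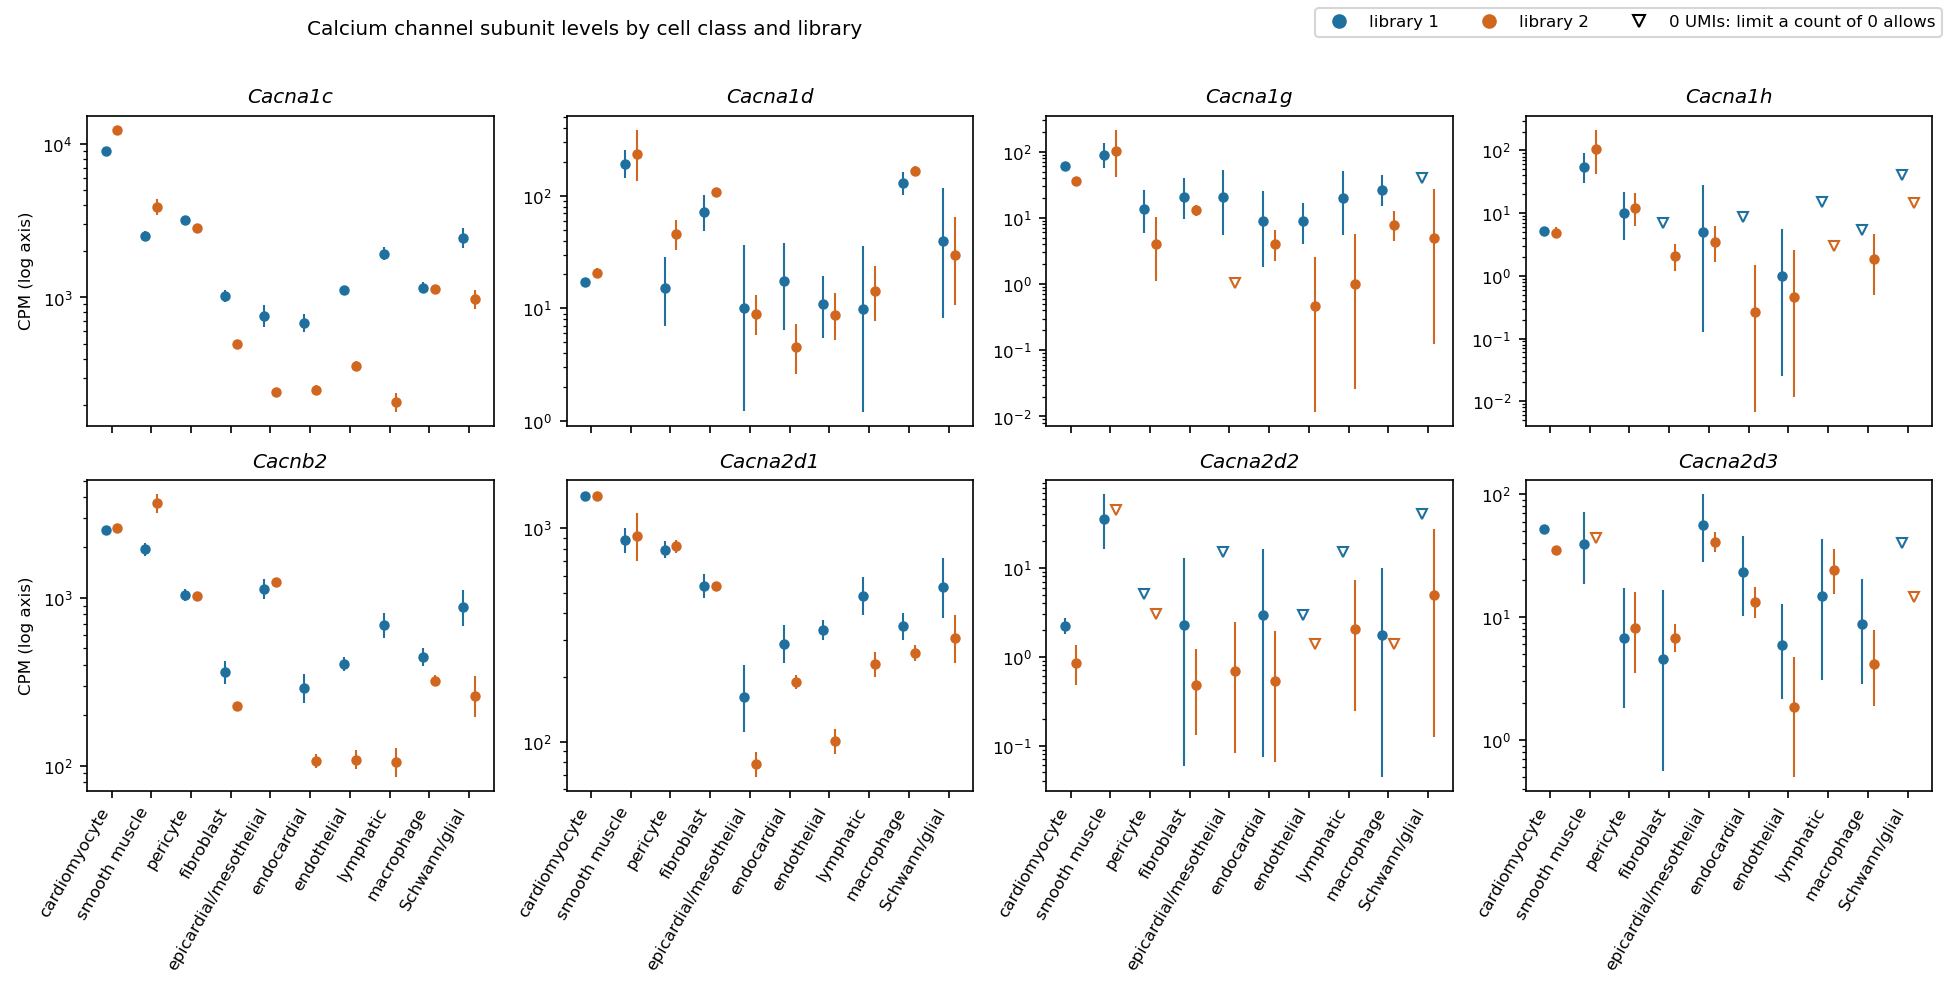
Level of each of the 8 members (CPM, log axis) in 10 marker-named classes, with library 1 in blue and library 2 in orange; bars are exact 95% Poisson intervals, which cover counting error only, and open triangles mark what a count of 0 allows (3 counts). By the mean of both libraries Cacna1c ran from cardiomyocyte-like cells (9029 and 12325) down to endocardial-like cells (684 and 251), although in library 2 lymphatic endothelial-like (207) and epicardial or mesothelial-like cells (240.4) were lower still, while Cacna1d was highest in macrophage-like, fibroblast-like and smooth muscle-like cells.

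Cacna1c (chromosome 6 from 118587240 to 119196418, minus strand, GRCm38) encodes the L-type pore of the working heart. In cardiomyocyte-like cells it reached 9029 CPM (library 1) and 12325 CPM (library 2). Pericyte-like cells, the contractile cells that wrap capillaries, followed at 3202 and 2838 CPM. Macrophage-like cells were at 1160 and 1142 CPM, lymphatic endothelial-like cells at 1932 and 207 CPM, and fibroblast-like cells at 1020 and 496 CPM. Both libraries had cardiomyocyte-like cells above every other class, and the libraries agreed on pericyte-like cells as the next of the tested classes. Against the mean of the other classes Cacna1c was 4.17 higher on the log2 scale in cardiomyocyte-like cells (SE 0.36, edgeR adjusted p = 1.36e-07). It was 1.39 higher in pericyte-like cells (SE 0.40, edgeR adjusted p = 0.022) and lower in endocardial-like cells, the inner lining of the heart, with a log2 difference of -1.999 (SE 0.53, edgeR adjusted p = 0.0127). Cardiomyocyte-like cells exceeded pericyte-like cells by 2.38 (SE 0.61, edgeR adjusted p = 0.00489). None of the other 5 steps between neighbours in the order of mean levels passed the test.

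Cacna1c transcripts also spread at low level through the other classes, and this was read against cardiomyocyte markers. The summed CPM of 12 markers such as Myh6 and Ttn in a class was taken as a percent of its cardiomyocyte-like level in the same library. It is set beside the members as a reference and is not a calibrated share of carried-over RNA. In endothelial-like cells Cacna1c was at 12.4% and 2.92% of its cardiomyocyte-like level, below the markers at 21.6% and 8.23%. Endocardial-like, lymphatic endothelial-like and macrophage-like cells were likewise below the marker percent in both libraries, so these levels are not read as expression by those cells, and the part of cardiomyocyte RNA in them was not tested. Fibroblast-like cells, at 11.3% and 4.02%, were close to the markers at 12.3% and 3.82%. In pericyte-like cells Cacna1c stood at 35.5% (95% Poisson interval 33.9 to 37.1) and 23.0% (22.2 to 23.9), above the markers at 20.1% and 5.23% in both libraries.

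**Figure D2:**
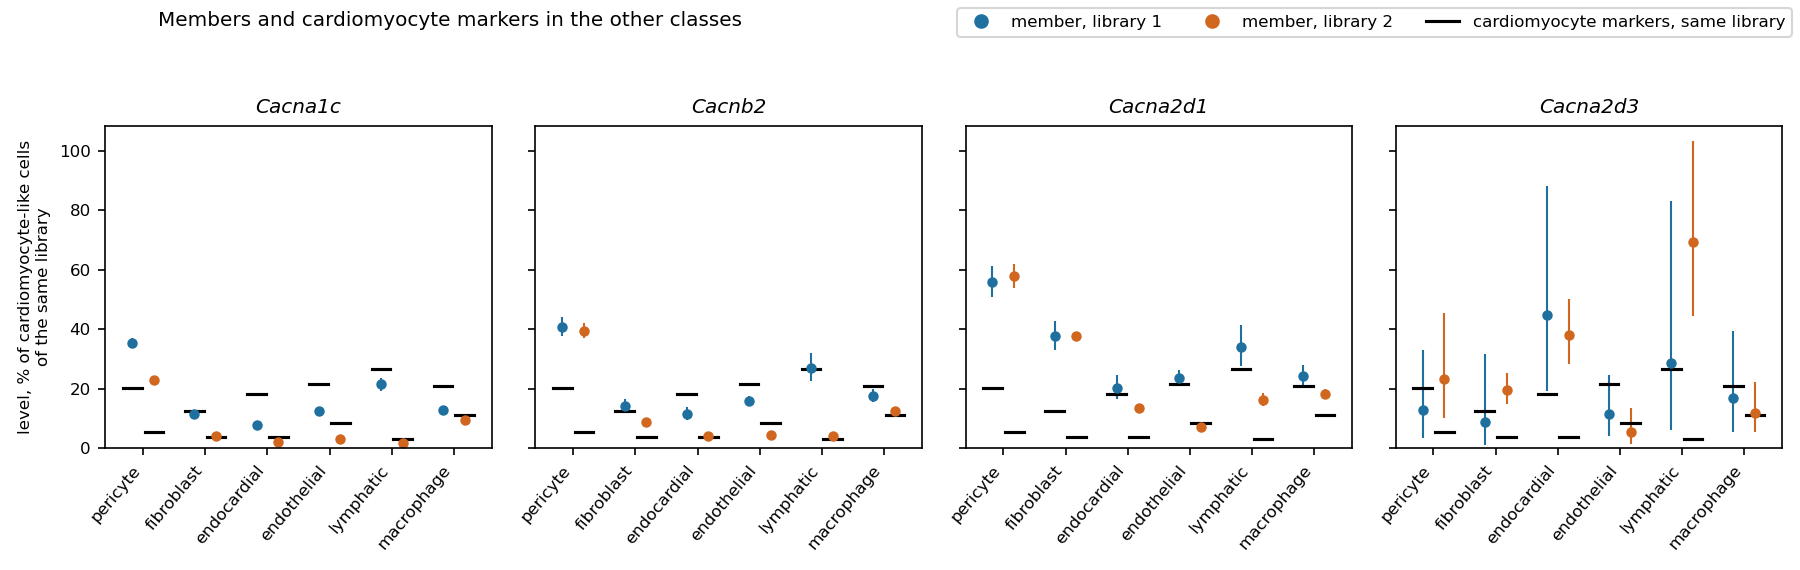
Level of 4 members in 6 classes as a percent of the cardiomyocyte-like level of the same library (points, library 1 blue and library 2 orange, bars exact 95% Poisson intervals), with black ticks for the summed cardiomyocyte markers. In pericyte-like cells Cacna1c, Cacnb2 and Cacna2d1 lie above the ticks in both libraries, and in endothelial-like cells Cacna1c and Cacnb2 lie below them.

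Cacnb2 (chromosome 2 from 14603088 to 14987908, plus strand) encodes the beta subunit that accompanies the L-type pore in heart muscle. Cardiomyocyte-like cells held 2550 and 2599 CPM, pericyte-like cells 1042 and 1026 CPM, and macrophage-like cells 446 and 321 CPM. Endothelial-like cells were at 404 and 109 CPM and endocardial-like cells at 291 and 107 CPM. The 2 libraries thus differed little in cardiomyocyte-like and pericyte-like cells and by more in macrophage-like, endothelial-like and endocardial-like cells. Smooth muscle-like cells, not tested, were at 1953 and 3653 CPM. Cacnb2 was 3.504 higher in cardiomyocyte-like cells (SE 0.29, edgeR adjusted p = 9.83e-08) and 1.42 higher in pericyte-like cells (SE 0.33, edgeR adjusted p = 0.00601). It was lower in endocardial-like cells by a log2 value of -1.65 (edgeR adjusted p = 0.0115) and in endothelial-like cells by -1.22 (edgeR adjusted p = 0.0371). Both the step from cardiomyocyte-like to pericyte-like cells (1.79, edgeR adjusted p = 0.00704) and that from pericyte-like to lymphatic endothelial-like cells (1.91, edgeR adjusted p = 0.0146) passed the test. Pericyte-like cells held 40.9% and 39.5% of the cardiomyocyte-like level, against 20.1% and 5.23% for the markers. Outside the tested classes, epicardial or mesothelial-like cells had 1133 and 1242 CPM of Cacnb2, or 44.5% and 47.8% of the cardiomyocyte-like level, with markers at 17.3% and 3.43%. That class had 48 cells in library 1, too few for the fit.

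Cacna2d1 (chromosome 5 from 15934691 to 16374511, plus strand) encodes the main alpha2delta subunit of heart muscle, on which gabapentin-type drugs act in nerve. It was at 1425 and 1427 CPM in cardiomyocyte-like cells, 796 and 825 CPM in pericyte-like cells and 538 and 536 CPM in fibroblast-like cells. In these 3 classes the libraries lay within each other's counting intervals. Endothelial-like cells, at 335 and 101 CPM, had the lowest mean of the tested classes. The difference was 2.50 in cardiomyocyte-like cells (SE 0.21, edgeR adjusted p = 1.17e-07) and 1.01 in pericyte-like cells (SE 0.24, edgeR adjusted p = 0.00655). It was -1.34 in endothelial-like cells (edgeR adjusted p = 0.00294) and -1.11 in endocardial-like cells (edgeR adjusted p = 0.0116). Cardiomyocyte-like cells exceeded pericyte-like cells by 1.27 (edgeR adjusted p = 0.00616), and pericyte-like and fibroblast-like cells differed by 0.62 (SE 0.34, edgeR adjusted p = 0.26). Fibroblast-like cells held 37.7% and 37.6% of the cardiomyocyte-like Cacna2d1 level, above the markers at 12.3% and 3.82% in both libraries. Cacna2d1 was above the marker percent in both libraries in 4 of the 6 other classes, against 1 of 6 for Cacna1c and for Cacnb2. For the remaining members it was 5 for Cacna1d, 2 for Cacna1g, 1 for Cacna1h and Cacna2d3 and 0 for Cacna2d2. The same count was not made over all genes.

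In pericyte-like cells 4 of the 7 tested members were higher, beside 12.2% of all genes tested, namely Cacna1c, Cacnb2, Cacna2d1 and Cacna1h. Cacna1h passed the filter on low counts only through its pericyte-like sums (10.1 and 12.1 CPM), so its call here is no independent support. Keeping the cells marked as doublets ended the calls of the other 3, with log2 differences of -0.02 for Cacna1c, 0.37 for Cacnb2 and 0.41 for Cacna2d1. A fit with no library block ended the same 3 calls, at 1.26, 1.26 and 0.97. Library 1 alone gave 0.97, 0.83 and 0.68 for the 3 genes, and library 2 alone 1.93, 1.98 and 1.35.

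Cacna2d3 (chromosome 14 from 28904943 to 29721864, minus strand), a further alpha2delta subunit, was at 52.5 and 35.0 CPM in cardiomyocyte-like cells. Lymphatic endothelial-like cells were at 14.9 and 24.3 CPM, from 3 and 24 UMIs, and endocardial-like cells at 23.5 and 13.3 CPM. The difference was 2.77 in cardiomyocyte-like cells (SE 0.18, edgeR adjusted p = 9.15e-09). It was -2.01 in endothelial-like cells (edgeR adjusted p = 0.00198) and -1.26 in macrophage-like cells (edgeR adjusted p = 0.0262). These rest on 6 and 4 UMIs in endothelial-like and 5 and 9 UMIs in macrophage-like cells. In lymphatic endothelial-like cells the log2 difference was 1.21 (SE 0.36, edgeR adjusted p = 0.027), a call lost with no library block, with doublets kept and with coarser clusters. It was the only one of the 7 tested members called higher there, beside 14.0% of all genes. From library 1 alone that difference was 0.23. Epicardial or mesothelial-like cells, not tested, had 55.9 and 41.3 CPM, or 106% and 118% of the cardiomyocyte-like level. Endocardial-like cells held 44.7% (interval 19.3 to 88.1) and 38.0% (28.2 to 50.1), above the markers in both libraries, and their difference of 0.65 from the mean of the other classes did not pass the test (edgeR adjusted p = 0.131).

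Cacna2d2 (chromosome 9 from 107399612 to 107529343, plus strand), also an alpha2delta subunit, was close to the limit of detection. Cardiomyocyte-like cells had 96 and 16 UMIs of it, or 2.22 and 0.839 CPM. No UMI was counted in endothelial-like or pericyte-like cells of either library. In the pericyte-like sums a count of 0 still allows 5.06 and 3.04 CPM, more than the cardiomyocyte-like level, so no difference was detectable there at this depth. Smooth muscle-like cells of library 1 had 9 UMIs, or 35.3 CPM (interval 16.1 to 67.0), and those of library 2 had none among 22 cells.

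Cacna1d (chromosome 14 from 30039939 to 30491455, minus strand) encodes the other L-type pore, known for pacemaking in the sinoatrial node and for atrial muscle. Its order of classes differed from that of the other members. Macrophage-like cells had 129 and 167 CPM and fibroblast-like cells 71.2 and 108 CPM. Pericyte-like cells had 15.2 and 45.5 CPM and cardiomyocyte-like cells 17.1 and 20.7 CPM. Endothelial-like cells were at 10.9 and 8.79 CPM, from 11 and 19 UMIs, and endocardial-like cells at 17.6 and 4.53 CPM, from 6 and 17 UMIs. The macrophage-like and fibroblast-like levels lay above all cardiomyocyte-like, endothelial-like and endocardial-like levels in both libraries.

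The Cacna1d difference was 2.90 in macrophage-like cells (SE 0.22, edgeR adjusted p = 9.03e-08) and 2.13 in fibroblast-like cells (SE 0.23, edgeR adjusted p = 4.41e-06). Cacna1d was the 1 member of 7 called higher in each of these classes, beside 19.6% of all genes in the macrophage-like and 17.4% in the fibroblast-like comparison. It was lower in endocardial-like cells, at -2.55 (SE 0.41, edgeR adjusted p = 0.000317), and in endothelial-like cells, at -1.64 (SE 0.36, edgeR adjusted p = 0.00318). From library 1 alone the endocardial-like difference was -0.60. In cardiomyocyte-like cells it was 0.05 (SE 0.22, edgeR adjusted p = 0.874), and its sign changed between scalings, at -0.43 with no TMM scaling. Macrophage-like and fibroblast-like cells differed by 0.66 (SE 0.28, edgeR adjusted p = 0.0906), while fibroblast-like exceeded pericyte-like cells by 1.49 (SE 0.35, edgeR adjusted p = 0.00633). Smooth muscle-like cells, with 78 and 22 cells and so not tested, had 192 and 237 CPM.

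Shares of cells with a Cacna1d UMI followed the same order. Thinned to 1000 UMIs a cell, macrophage-like cells had one in 10.8% and 17.5% of cases and fibroblast-like cells in 4.32% and 8.80%. The share was 1.58% and 1.61% in cardiomyocyte-like and 0.998% and 0.721% in endothelial-like cells. Before thinning the macrophage-like shares were 19.1% and 39.96%, at median depths of 1587 and 3046 UMIs, and the cardiomyocyte-like shares 6.41% and 10.98%, at 4798 and 7385 UMIs. Thinning left out 24 and 16 macrophage-like and 16 and 1 cardiomyocyte-like cells. For Cacna1c the thinned shares were 99.7% and 99.9% in the cardiomyocyte-like, 93.6% and 91.0% in the pericyte-like and 64.1% and 33.3% in the endothelial-like class. In the last class Cacna1c was below the marker percent in both libraries, and its shares are not read as expression.

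The endothelial-like class had 5 of the 7 tested members lower (Cacna1d, Cacna1g, Cacnb2, Cacna2d1 and Cacna2d3), beside 10.8% of all genes tested. Few UMIs lie behind the calls of Cacna1g (9 and 1 in the 2 libraries) and Cacna2d3 (6 and 4) in that class. The endocardial-like class had 4 lower (Cacna1c, Cacna1d, Cacnb2 and Cacna2d1), beside 9.10% of all genes. The macrophage-like class had 1 lower, Cacna2d3, from 5 and 9 UMIs, beside 10.5%. Cells marked as doublets were removed here; with them kept, the endothelial-like calls of Cacna1g, Cacnb2, Cacna2d1 and Cacna2d3 were lost, at log2 differences of -0.29, -0.12, -0.42 and -0.56. From library 1 alone these 4 differences were -1.21, -0.74, -0.75 and -1.13, and from library 2 alone -3.01, -1.72, -2.12 and -2.44. With no library block, the endothelial-like calls of Cacna1g and Cacnb2, the endocardial-like calls of Cacna1c, Cacnb2 and Cacna2d1 and the macrophage-like call of Cacna2d3 were lost. Coarser clusters also ended the call of Cacna1g, at -1.42, and library 1 alone gave -0.57 for Cacna2d3 in macrophage-like cells.

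**Figure D3:**
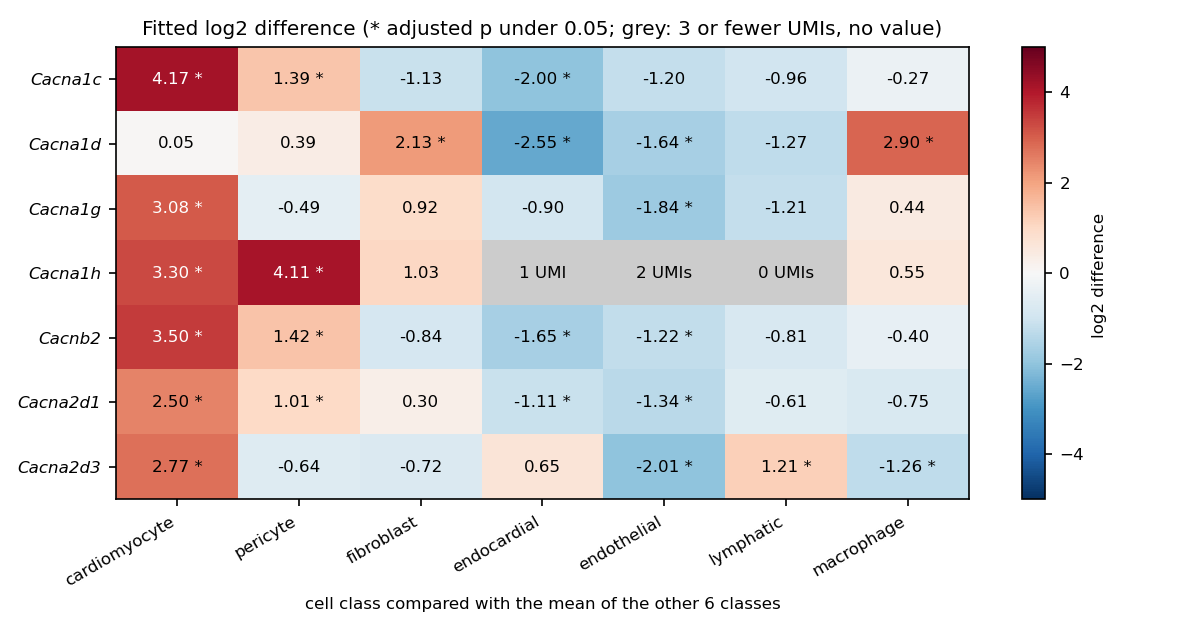
Fitted log2 difference of 7 members (rows) in each tested class (columns) from the mean of the other 6 classes, with red for higher, blue for lower and an asterisk for an adjusted p under 0.05; grey cells had 3 or fewer UMIs in both libraries together. The cardiomyocyte-like column is red for 6 members, and Cacna1d is high in the macrophage-like (2.90) and fibroblast-like (2.13) columns.

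Cacna1g (chromosome 11 from 94408391 to 94474198, minus strand), a T-type pore, was at 60.7 and 36.0 CPM in cardiomyocyte-like cells. Macrophage-like cells had 26.6 and 7.78 CPM and fibroblast-like cells 20.7 and 13.1 CPM, from 9 to 109 UMIs a sum. In both libraries the cardiomyocyte-like level was the highest of the tested classes. The difference there was 3.08 (SE 0.24, edgeR adjusted p = 5.37e-08), and in endothelial-like cells -1.84 (SE 0.57, edgeR adjusted p = 0.0251). Endothelial-like sums held only 9 and 1 UMIs of Cacna1g. Cardiomyocyte-like cells exceeded macrophage-like cells by 2.26 (SE 0.38, edgeR adjusted p = 0.000151). Smooth muscle-like cells had 90.2 and 104 CPM, from 23 and 7 UMIs. In fibroblast-like cells Cacna1g was at 34.1% and 36.3% of its cardiomyocyte-like level, above the markers at 12.3% and 3.82%.

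Cacna1h (chromosome 17 from 25374285 to 25433783, minus strand), the other T-type pore, was rare. Cardiomyocyte-like cells had 5.12 and 4.88 CPM and pericyte-like cells 10.1 and 12.1 CPM, the latter from 6 and 12 UMIs. Only these pericyte-like sums passed the filter on low counts, so Cacna1h was tested through the tested class where it was highest. Fibroblast-like cells had 0 and 17 UMIs, and lymphatic endothelial-like cells had none in either library, where a count of 0 allows 14.9 and 3.04 CPM. In library 1 that limit is above the cardiomyocyte-like level. The fitted differences were 4.11 in pericyte-like cells (SE 0.66, edgeR adjusted p = 0.000404) and 3.30 in cardiomyocyte-like cells (SE 0.48, edgeR adjusted p = 3.91e-05). Both sizes rest on classes with 0 to 2 UMIs in both libraries together and are not bounds. From library 2 alone they were 3.11 and 2.16. Pericyte-like and cardiomyocyte-like cells differed by 0.69 (SE 0.46, edgeR adjusted p = 0.24), and cardiomyocyte-like exceeded fibroblast-like cells by 1.95 (SE 0.49, edgeR adjusted p = 0.0039). In smooth muscle-like cells, not tested, 14 and 7 UMIs gave 54.9 CPM (interval 30.0 to 92.1) and 104 CPM (41.6 to 213).

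Smooth muscle-like cells, of which there were 78 and 22, held all 8 members in library 1. Cacna1c was at 2510 and 3904 CPM, Cacnb2 at 1953 and 3653 CPM and Cacna2d1 at 879 and 917 CPM. Cardiomyocyte markers there were at 35.9% and 5.83% of the cardiomyocyte-like level. Cacna1c was below this percent in library 1 (27.8%) and above it in library 2 (31.7%), while Cacnb2 was above it in both (76.6% and 141%).

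Cardiomyocyte-like cells themselves were not uniform. Cluster 21, with 88 cells in library 1 and 7 in library 2, was led by atrial genes: Sln, Myl7, Myl4 and Nppa together reached 24570 CPM in library 1, against 30.2 to 66.4 CPM in its other cardiomyocyte-like clusters. In library 1 cluster 21 had 362 CPM of Cacna1d, where the 4 other clusters of 50 or more cells had 10.8 to 14.9 CPM. Cacna2d2 was at 134 CPM (interval 102 to 173) against 0.718 to 1.26 CPM, and Cacna2d3 at 123 CPM against 37.7 to 65.6 CPM. Cacna1h was at 56.8 CPM against 1.74 to 11.1 CPM. Cacna1c, at 3366 CPM, Cacnb2, at 1630 CPM, and Cacna2d1, at 609 CPM, were below the other clusters, which lay at 8563 to 9529, 2083 to 3033 and 1250 to 1545 CPM. Cacna1g, at 61.4 CPM, lay within the range of the other clusters, 54.6 to 69.3 CPM.

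The 88 cells of cluster 21 held 159 of the 737 Cacna1d UMIs and 59 of the 96 Cacna2d2 UMIs of the 7500 cardiomyocyte-like cells of library 1. In library 2 the 7 cells of the cluster had 20 UMIs of Cacna1d, or 527 CPM, beside 19.5 CPM in the 2129 cells of cluster 1. Clusters were formed from these same cells, so their differences are descriptions with no test. Among the remaining clusters Cacna1h ranged most. It was at 11.1 CPM (93 UMIs) in cluster 6 of library 1 and at 1.74 CPM (14 UMIs) in cluster 4. The 31 cells of cluster 6 in library 2 had 12 UMIs of Cacna1h, or 41.0 CPM, against 4.31 CPM in cluster 1.

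**Figure D4:**
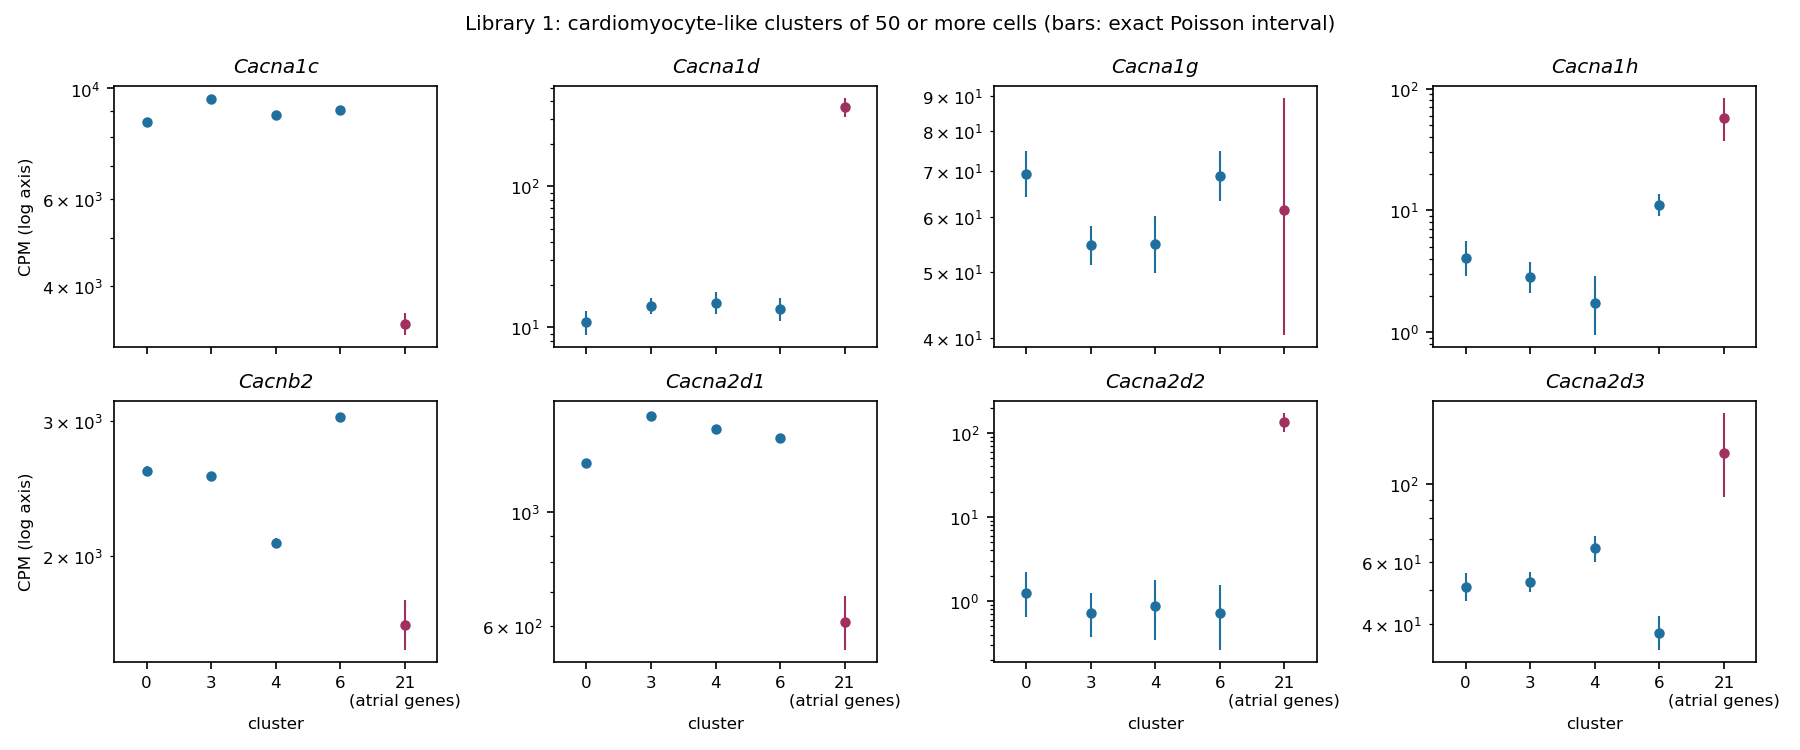
Level of each member (CPM, log axis, which differs between panels) in the 5 cardiomyocyte-like clusters of 50 or more cells of library 1, with exact 95% Poisson intervals. Cluster 21, led by atrial genes and drawn in red, has the highest Cacna1d (362), Cacna2d2 (134), Cacna1h (56.8) and Cacna2d3 (123) and the lowest Cacna1c (3366), Cacnb2 and Cacna2d1.

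Cardiomyocyte-like cells bore a GFP UMI in 18.2% of cases in library 1 and 23.0% in library 2. Among fibroblast-like cells, at median depths of 2912 and 3152 UMIs, the shares were 0.719% and 0.589%. Of the other named classes, endocardial-like cells had the highest share in library 1, 2.31%. In library 2 smooth muscle-like cells had 9.09%, from 3 GFP UMIs, and the next was macrophage-like cells at 1.57%. Cardiomyocyte-like cells with a GFP UMI were compared with an equal number without one drawn at the same depth, 1334 and 491 in each library. Cells without a GFP UMI may hold GFP transcripts that were not captured. None of the 8 members was called in this comparison by edgeR's quasi-likelihood test with library as a block, beside 2.43% of 12740 genes tested. At an unadjusted p under 0.05 there were 2 of the 8 members, Cacna2d1 and Cacna2d2, beside 1505 of the 12740 genes tested. DESeq2 called no member. Only 1 residual degree of freedom was left before the spread was pooled over genes.

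Cacna1c was at 9081 CPM with and 9303 CPM without a GFP UMI in library 1, and at 11759 and 12632 CPM in library 2. The log2 difference was -0.10 (95% interval -0.23 to 0.02, edgeR adjusted p = 0.586). For Cacnb2 it was 0.01 (interval -0.12 to 0.13, edgeR adjusted p = 0.985), from 2715 and 2500 CPM in library 1 and 2630 and 2689 CPM in library 2, and the libraries went opposite ways. Cacna2d1 was lower with GFP in both libraries, at 1381 against 1506 CPM and 1403 against 1484 CPM. Its log2 difference of -0.14 (interval -0.26 to -0.01) did not pass the adjusted test (edgeR adjusted p = 0.344). For these 3 abundant transcripts the intervals reach at most 0.26 in either direction on the log2 scale. They rest on a spread pooled over genes and leave out the draw of cells, so they do not bound the change.

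The rarer members had wider intervals. Cacna2d2 was at 1.49 CPM with and 3.69 CPM without a GFP UMI in library 1, and at 0.781 and 1.17 CPM in library 2, a log2 difference of -1.17 (interval -2.006 to -0.34, edgeR adjusted p = 0.136). The atrial genes Nppa, Myl7, Sln and Myl4 were all lower with GFP, by log2 values of -1.84, -2.35, -1.98 and -1.53 (edgeR adjusted p from 1.70e-73 for Nppa to 5.59e-20 for Myl4). These p-values rest on a spread pooled over genes and do not measure each gene's own variation between the 2 libraries. All 4 calls were lost with no library block (edgeR adjusted p = 0.9999 for each), and DESeq2 kept that of Myl7 alone. They were also lost without cluster 21, at -0.13, -0.33, -0.72 and 0.11. The cells with a GFP UMI included 8 of cluster 21 in library 1 and those without included 20, with none on either side in library 2. Left without that cluster, Cacna2d2 had too few counts to be tested, so the part of these cells in its difference was not tested. Cacna1d had a difference of -0.07 (interval -0.36 to 0.21), Cacna1g of -0.16 (-0.36 to 0.04), Cacna2d3 of -0.20 (-0.41 to 0.0083) and Cacna1h of 0.18 (-0.32 to 0.69). The 2 libraries went opposite ways for Cacna1d and Cacna1g, and Cacna1h had 23 UMIs with and 23 without a GFP UMI in library 2.

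**Figure D5:**
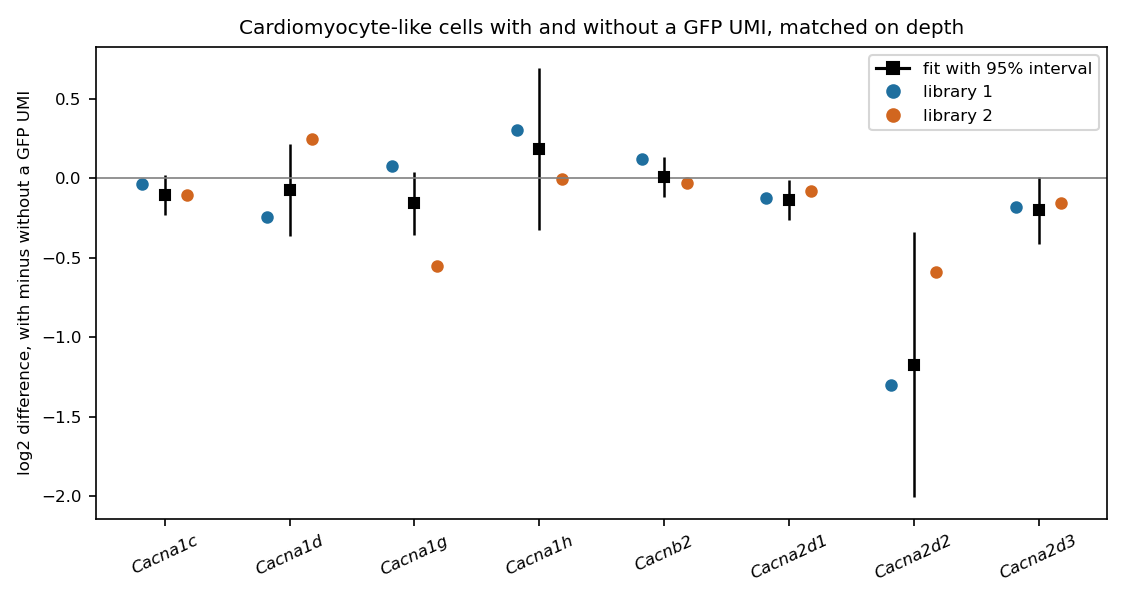
Log2 difference of each member between cardiomyocyte-like cells with and without a GFP UMI, matched on depth: black squares are the fit with its 95% interval, blue and orange points the CPM differences of library 1 and library 2. Cacna1c and Cacnb2 lie near 0 with narrow intervals, and Cacna2d2 lies lowest (-1.17) with the widest interval.

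Other subunits of the channel family gave a mixed picture. Of 18 further pore, beta, alpha2delta and gamma genes, 6 had enough counts for the class comparison. In cardiomyocyte-like cells 1 of these 6 was higher and 4 lower, beside 31.8% and 34.7% of all genes tested. The median log2 difference of the 6 was -2.44, beside -0.07 for all genes tested. Cacna1a, a pore best known from nerve terminals, was 0.56 higher (SE 0.16, edgeR adjusted p = 0.00745), a call lost with no TMM scaling at 0.08 and with doublets kept at 0.09. The pore Cacna1e was lower by a log2 value of -3.55 (edgeR adjusted p = 1.48e-05) and the gamma subunit Cacng7 by -3.08 (edgeR adjusted p = 0.0326). The beta subunits Cacnb3 and Cacnb4 were lower by -2.98 (edgeR adjusted p = 0.00728) and -1.89 (edgeR adjusted p = 2.84e-06), opposite in direction to Cacnb2.

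Among 25 genes for channel partners and regulators, 20 were tested, with a median of -0.09 in cardiomyocyte-like cells. Of the 20, 9 were higher and 8 lower there, beside 31.8% and 34.7% of all genes tested. Without TMM scaling 8 of the 20 were higher and 10 lower, beside 2361 and 6463 of all 12217 genes. The largest rises were of Ryr2, the calcium release channel that faces the L-type pore (4.496, SE 0.35), Jph2, which holds the facing membranes together (4.02, SE 0.26), Akap6, a kinase anchor (3.89, SE 0.28), and Adrb1, the main beta-adrenergic receptor of heart muscle (3.69, SE 0.22). Bin1, a membrane-bending protein of the transverse tubules, was lower by a log2 value of -5.45 (SE 0.21) relative to the other classes. Rem1 and Gem, small GTP-binding proteins that inhibit the channel, were lower by -4.35 (SE 0.45) and -2.24 (SE 0.35), whereas Rrad, an inhibitor of the same family, was 2.93 higher (SE 0.21). All 8 passed edgeR's test, with adjusted p from 5.27e-10 for Bin1 to 5.74e-05 for Gem. In the GFP comparison 18 partners and 4 other subunits were tested and none was called by edgeR's test, beside 2.43% of all genes tested.

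Likeness of pattern was measured as Pearson's r of log2(CPM + 1) over the 14 class sums, which share libraries and depth. For Cacna1c the 3 most alike of the genes tested were Synpo2 (r = 0.991), Cacnb2 (0.990) and Jph2 (0.985). For Cacnb2 they were Synpo2 (0.992), Cacna1c (0.990) and Ppargc1b (0.988). Cacna2d1 was most like Asph (0.954), Malat1 (0.951) and Rdh13 (0.936), and Cacna2d3 most like Eml5 (0.860), Macrod2 (0.855) and Arhgap44 (0.850). Cacna1d was most like Ust (0.904), Dcakd (0.886) and Myo9b (0.885). Among T-type pores, Cacna1g was most like Teddm2 (0.951), Phkg1 (0.947) and Lamb3 (0.9405), and Cacna1h most like Gm38251 (0.945), Tmem196 (0.933) and Rbpms2 (0.924). No other member was among the 3 nearest genes of Cacna1d, Cacna1g, Cacna1h, Cacna2d1 or Cacna2d3.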

How the data were processed

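Droplet libraries (3′ v3 chemistry, per the labels' protocols) held raw UMI counts per gene and barcode, which the authors deposited without normalization. Per the file headers, Cell Ranger 6.0.0 wrote them. Seurat, edgeR, fastp and Trimmomatic, and the build GRCm38 (mm10), are listed in the submitters' processing notes. No source used here says whether introns or strand were counted, so overlapping genes are uncertain. Levels were not compared between genes.

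Barcodes with 500 UMIs, 200 genes and at most 25% mitochondrial counts were kept. Simulated doublets marked 727 (5.71%) and 612 (6.51%) barcodes; of the simulated ones 49.9% and 56.5% exceeded the threshold, so doublets may remain. After removal, including clusters of at least 40% marked cells, 11921 and 8638 cells were left. Leiden clustering (leidenalg 0.10.2, resolution 1) on 30 components of 2000 genes, without the members, gave 29 clusters, named from marker lists by a rule set after the data were seen, as were 3 lists used only to withhold names. Class sums were fitted with edgeR 4.0.16 (quasi-likelihood, TMM, filterByExpr, library block; DESeq2 1.42.0 as an alternative), called at an adjusted p of 0.05. The block is paired by construction, since all classes of a library share 1 suspension. CPM divides by the class total. The fit was tested on simulated data.

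The members and lists were chosen with earlier results of these data known. Named genes were all members, up to 4 list genes in each direction among those called, and 3 most alike genes a member. Intervals are exact (Poisson) and cover counting error only.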

Additional observations from a re-analysis of the deposited data

How the results depend on the processing

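Refits changed the scaling, filter, tool, block, cluster resolution, doublet removal and cell filter, or left out the atrial-led cluster. Further ones, chosen after seeing the data, left out cluster 17 of the macrophage-like class or kept clusters whose name a single marker of another type had withheld. All of them had 6 members higher in cardiomyocyte-like cells, except 5 at resolution 2, where Cacna1h was not tested, and 7 with no filter on low counts, where Cacna2d2 was called too. The cause of changed values was not tested. Doublets kept gave the lowest values, such as 2.63 for Cacna1c in place of 4.17. In cardiomyocyte-like cells Cacna1d, at 0.05, turned to -0.063 with DESeq2, -0.35 with doublets kept, -0.43 with no TMM scaling and -0.13 without the atrial-led cluster, and Cacna1c in pericyte-like cells to -0.022 with doublets kept.

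The library block pairs the sums. With no replicate block 6 members remained higher in cardiomyocyte-like cells, and Cacna1d there was at -0.035. In the GFP comparison no fit called a member. All genes called there fell from 310 to 0 with no replicate block (92 at an unadjusted p under 0.05), to 15 with DESeq2, 60 with a second draw of cells, 142 with at least 2 GFP UMIs and 158 with no TMM scaling. Among members, Cacna1d turned to 0.18 without the atrial-led cluster, Cacna1h to -0.10 with at least 2 GFP UMIs, and Cacnb2 to -0.00045 with the second draw. With 1 library left out, no test was possible, and differences had the sign of the 2-library value for each call. Depth limits Cacna1h and Cacna2d2 most.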
